A study of Mus musculus with 39 samples.

Results

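The genes followed here act in meiotic recombination in the mouse testis and are 10 of the 21561 Ensembl genes that the deposited count tables share. They were taken by their symbol and joined between the tables by Ensembl identifier, and all 10 were found and passed the filter on low counts in all 15 comparisons.

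In meiosis, homologous chromosomes are cut, repaired from each other and joined by crossovers, so that they can be pulled apart in order at the first meiotic division. Prdm9 marks the sites to be cut with histone methylation, and Spo11 makes the double-strand breaks. The recombinase Dmc1 then lets the cut end search the homologue with help from the single-strand binding proteins Meiob and Spata22. Msh4 with Msh5, the helicase Hfm1 and the ring finger protein Rnf212 hold on to the joined intermediates that will become crossovers, and Mlh3 is part of the nuclease that resolves them. In the mouse testis spermatogonia enter the first round of meiosis in the second week after birth, and cells with breaks and crossovers accumulate over the weeks that follow.

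The study asked what happens in the testis and gubernaculum, the ligament that draws the testis down, when the mouse hormone INSL3 is replaced by that of a whale. Whole testes of male C57BL/6J mice were profiled by mRNA sequencing in 24 libraries, 3 per group. WT and INSL3-KI testes were taken at postnatal days (P) 8, 23 and 40, and INSL3-KO testes at P8 and P23. INSL3-KI mice were homozygous for minke whale INSL3 cDNA set into the mouse Insl3 locus under its own regulatory elements, and INSL3-KO mice lacked INSL3 by gene knockout. Both changes were carried in every cell from conception, the strain background was the same in all groups, and none of the mice was treated. The labels mark the 3 libraries of a group as biological replicates but do not say which animals they came from, so the p-values measure the spread between these libraries.

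The testis libraries held 33000204 to 42629270 counts. Mouse Insl3 was at 2722 to 3524 counts in WT and 15 to 33 in INSL3-KI testes at P8, and at 20844 to 25238 in WT, 52 to 84 in INSL3-KI and 0 to 5 in INSL3-KO testes at P23. The 3 P8 libraries labelled INSL3-KO still held 613 to 906 Insl3 counts, below WT but against a complete loss, so the label is used for them only as a label. At P40 Insl3 was at 20183 to 29799 counts in WT and 443 to 511 in INSL3-KI testes. All INSL3-KO libraries and WT at P23 were deposited in the second of 2 tables and the other groups in the first, so in 6 of the 15 comparisons (INSL3-KO against WT and INSL3-KI against INSL3-KO at P8, INSL3-KI against WT and against INSL3-KO at P23, and WT at P23 against P8 and P40) table and group cannot be told apart. Among the 3 libraries of a group, the second INSL3-KI library at P8, the third INSL3-KI library at P23 and the first INSL3-KI library at P40 stood apart in germ cell genes. Their values are given with each result that rests on them.

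The 250 bases before the RefSeq transcription start (build GRCm38.p6) are shown for 3 genes, because Prdm9 and Dmc1 reached their highest group mean in INSL3-KI testes at P8 while Rnf212 was not called there by edgeR, although DESeq2 called it higher. Prdm9 (chr17:15564355-15564604, minus strand) and Rnf212 (chr5:108775028-108775277, minus strand) carry letters searched for, and Dmc1 (chr15:79605110-79605359, minus strand) carries none. The windows overlap no annotated exon. Capitals mark TTCCCGC, a form of the site bound by E2F factors, or CNCCTCAG, a motif reported for the meiotic initiation factors STRA8 and MEIOSIN, on either strand.

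Prdm9: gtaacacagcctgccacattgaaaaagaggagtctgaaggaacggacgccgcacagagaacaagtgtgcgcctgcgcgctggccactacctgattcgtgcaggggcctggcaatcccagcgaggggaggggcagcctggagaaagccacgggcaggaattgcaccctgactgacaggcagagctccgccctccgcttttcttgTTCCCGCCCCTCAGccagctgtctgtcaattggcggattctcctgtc

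Rnf212: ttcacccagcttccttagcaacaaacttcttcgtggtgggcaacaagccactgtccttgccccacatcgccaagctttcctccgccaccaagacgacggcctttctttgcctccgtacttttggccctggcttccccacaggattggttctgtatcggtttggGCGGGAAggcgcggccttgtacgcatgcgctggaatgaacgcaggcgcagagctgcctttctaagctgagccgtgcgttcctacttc

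Dmc1: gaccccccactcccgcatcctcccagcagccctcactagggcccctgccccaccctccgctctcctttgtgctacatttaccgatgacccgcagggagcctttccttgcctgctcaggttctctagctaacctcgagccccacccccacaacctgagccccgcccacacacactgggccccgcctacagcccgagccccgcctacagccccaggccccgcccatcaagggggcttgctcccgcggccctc

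In the Prdm9 window TTCCCGC begins 47 bases before the start and CNCCTCAG begins 41 bases before it, so the motifs share a base. Another start is listed for Prdm9, and its window (chr17:15563332-15563581, minus strand) holds neither motif. In the Rnf212 window TTCCCGC lies on the opposite strand from 87 bases before the start. Of the 8 members in the promoter table, 3 (Msh5, Prdm9 and Rnf212) held TTCCCGC, against 3.82% of all 32851 promoters, and 3 (Hfm1, Msh5 and Prdm9) held CNCCTCAG, against 6.42%. CACGTG, an E-box, and CAGTTG, a core of MYB sites, were in the windows of 0 of these 8 genes, against 6.02% and 11.1% of all promoters. A gene was counted once where the table lists more than 1 start for it. These are matches of letters in short windows and give nothing on whether a factor binds there. Spo11 and Meiob were not matched.

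In outline, 8 of the 10 genes were called higher at P8 in INSL3-KI than in WT testes, against 3.04% of all genes, a count that fell to 0 when any of 4 single libraries was left out. In libraries labelled INSL3-KO 8 were called higher, against 5.44%. At P23 9 of the 10 were called lower in INSL3-KO than in WT testes relative to all genes, against 33.4%. Scaled on pachytene spermatocyte genes they took the opposite sign, where 14342 of 16732 genes were called higher. In INSL3-KI testes 0 were called at P23, against 8.81% higher and 11.8% lower. At P40 1, Msh5, was called lower in INSL3-KI testes, against 22.1%. Levels per library are given as CPM, counts relative to the size of the library, scaled across the 24 testis libraries by the trimmed mean of M values (TMM). A gene was called where the edgeR quasi-likelihood test gave an adjusted p (Benjamini-Hochberg, over all genes tested) under 0.01 and the change was 2-fold or more. Fold changes are log2 values with their standard error (SE). In whole testis RNA, fewer cells of a type and less RNA per cell cannot be told apart.

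**Figure D1:**
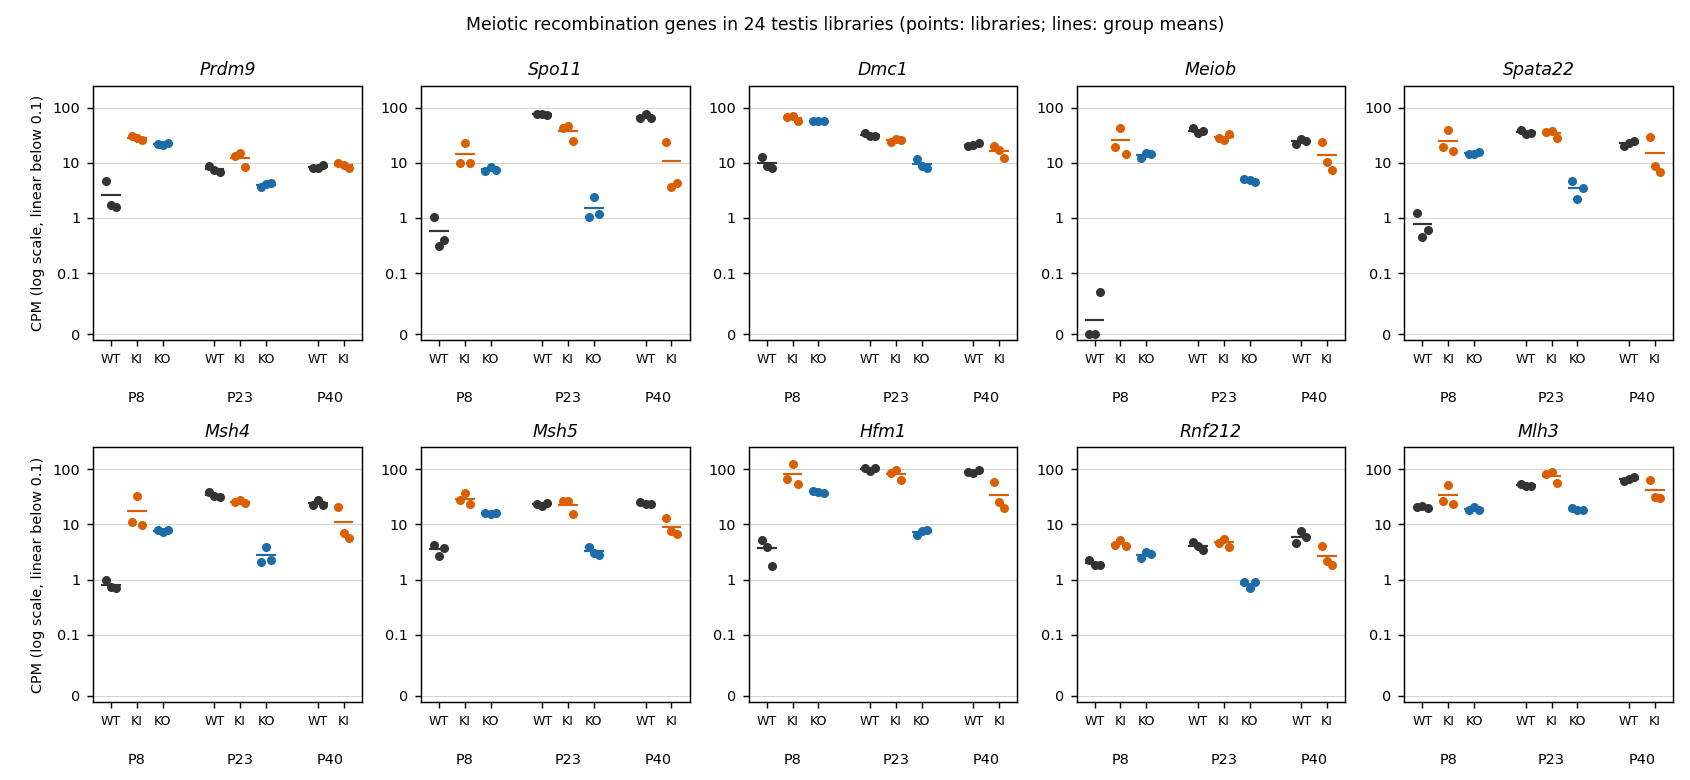
CPM of each recombination gene (log scale, linear below 0.1) in the 24 testis libraries, scaled by TMM; points are libraries and lines are means of 3 libraries, with WT in black, INSL3-KI in orange and INSL3-KO in blue. In WT at P8, 6 of the 10 genes were at their lowest mean, and Dmc1, Msh5 and Prdm9 were at their highest mean in INSL3-KI at P8.

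Among the genes of break formation, Prdm9 (chr17:15543079-15564354, minus strand) encodes the histone methyltransferase whose zinc fingers choose the sites of breaks. At P8 Prdm9 was at 4.62, 1.72 and 1.58 CPM in WT, at 30.4, 27.7 and 25.8 CPM in INSL3-KI and at 22.2, 21 and 23.3 CPM in libraries labelled INSL3-KO. Every library of both these groups lay above every WT library, and the INSL3-KI libraries all lay above those labelled INSL3-KO. At P23 Prdm9 was at 8.79, 7.46 and 6.85 CPM in WT, 13.3, 15.2 and 8.43 CPM in INSL3-KI and 3.63, 4.12 and 4.38 CPM in INSL3-KO. The third INSL3-KI library fell within the WT range there. The INSL3-KO libraries lay below all others with this scaling but overlapped WT by library size alone. At P40 Prdm9 stood at 8.02, 8.03 and 9.3 CPM in WT and at 9.92, 9.26 and 8 CPM in INSL3-KI, ranges that overlap. In INSL3-KI, and in libraries labelled INSL3-KO, Prdm9 was highest at P8, whereas in WT the P8 libraries were the lowest with this scaling and overlapped those of P23 by library size alone.

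Spo11 (chr2:172977700-172993576, plus strand) encodes the catalytic subunit that cuts the DNA. At P8 Spo11 was at 1.02, 0.316 and 0.396 CPM in WT, 10.1, 22.5 and 10.1 CPM in INSL3-KI and 7.09, 8.44 and 7.31 CPM in libraries labelled INSL3-KO. The second INSL3-KI library was the highest, and neither group overlapped WT. At P23 Spo11 was at 76.5, 77.5 and 73.1 CPM in WT, 42.7, 47.2 and 25.1 CPM in INSL3-KI and 1.04, 2.39 and 1.18 CPM in INSL3-KO. The 3 groups did not overlap, with INSL3-KI between the others. At P40 it was at 65.4, 75.5 and 64 CPM in WT and at 24.1, 3.68 and 4.28 CPM in INSL3-KI, where the first library stood apart from the others but still below WT.

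Of the strand exchange genes, Dmc1 (chr15:79561497-79605109, minus strand) encodes the recombinase used only in meiosis. At P8 Dmc1 was at 12.8, 8.69 and 8.06 CPM in WT, 67.6, 72.2 and 57.4 CPM in INSL3-KI and 58, 56.7 and 57.4 CPM in libraries labelled INSL3-KO. With this scaling these 2 groups overlapped each other, and both stood above WT. At P23 Dmc1 was at 34.5, 30.4 and 31.2 CPM in WT, 24.3, 26.8 and 25.6 CPM in INSL3-KI and 11.5, 8.63 and 7.95 CPM in INSL3-KO, without overlap, although INSL3-KI and WT overlapped by library size alone. At P40 Dmc1 was at 19.9, 20.8 and 22.9 CPM in WT and 20.1, 17.2 and 12.2 CPM in INSL3-KI, which overlapped. The P8 libraries of INSL3-KI and those labelled INSL3-KO held more Dmc1 than any library of P23 or P40.

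Meiob (chr17:24804289-24839788, plus strand) encodes a single-strand binding protein that works with replication protein A. In WT at P8 Meiob was at 0, 0 and 0.0699 CPM, the last from 3 counts, against 19.6, 43.3 and 14.6 CPM in INSL3-KI and 12.3, 15.3 and 14.3 CPM in libraries labelled INSL3-KO. At P23 it was at 43.3, 35.1 and 37.4 CPM in WT, 28.2, 26.4 and 33.1 CPM in INSL3-KI and 5.12, 4.85 and 4.4 CPM in INSL3-KO. At P40 Meiob was at 21.9, 26.8 and 24.8 CPM in WT and 24.3, 10.3 and 7.34 CPM in INSL3-KI. WT was apart from both other groups at P8. At P23 the 3 groups were apart with this scaling, but INSL3-KI and WT overlapped by library size alone, and they overlapped at P40 through the first INSL3-KI library.

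Spata22 (chr11:73329741-73346044, plus strand) encodes the partner that Meiob needs. The first table carries it under 2 overlapping identifiers, between which the reads of a library could fall either way, so both were summed; the second table does not split it. At P8 Spata22 was at 1.25, 0.451 and 0.606 CPM in WT, 19.3, 39.5 and 16.4 CPM in INSL3-KI and 14.7, 14.5 and 15.7 CPM in libraries labelled INSL3-KO. At P23 it was at 39.7, 33.6 and 35.3 CPM in WT, 36.9, 37.2 and 28.3 CPM in INSL3-KI and 4.61, 2.23 and 3.46 CPM in INSL3-KO. The pattern ran close to that of Meiob at P8 and in INSL3-KO, but at P23 INSL3-KI overlapped WT. At P40 Spata22 was at 20.5, 23 and 24.8 CPM in WT and at 29.5, 8.83 and 6.75 CPM in INSL3-KI, the first library above WT and the others below.

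The crossover genes begin with Msh4 and Msh5, which form a clamp on recombination intermediates. Msh4 (chr3:153857149-153906138, minus strand) was at 0.973, 0.722 and 0.699 CPM in WT at P8, 11.1, 32.7 and 9.66 CPM in INSL3-KI and 7.87, 7.17 and 7.99 CPM in libraries labelled INSL3-KO. At P23 Msh4 was at 38.3, 33.1 and 31.9 CPM in WT, 25.8, 28 and 24.1 CPM in INSL3-KI and 2.11, 3.84 and 2.3 CPM in INSL3-KO, with no overlap, although INSL3-KI and WT overlapped by library size alone. At P40 it was at 22.6, 28.3 and 22.7 CPM in WT and 20.5, 6.91 and 5.63 CPM in INSL3-KI. The first library was just below WT with this scaling, but the groups overlapped by library size alone. Msh5 (chr17:35028605-35046745, minus strand) was in WT at P8 at 4.32, 2.66 and 3.66 CPM. INSL3-KI held 28, 36.5 and 23.5 CPM of Msh5 at P8, and libraries labelled INSL3-KO held 16.3, 15.5 and 16.4 CPM. At P23 Msh5 was at 23.9, 21.9 and 24.1 CPM in WT, 26.1, 26.5 and 15.6 CPM in INSL3-KI and 3.84, 3.06 and 2.83 CPM in INSL3-KO, where INSL3-KI lay on both sides of WT. At P40 Msh5 was at 26, 23.1 and 23.5 CPM in WT and at 13.2, 7.53 and 6.58 CPM in INSL3-KI, apart from WT in all 3 libraries.

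Hfm1 (chr5:106840192-106926321, minus strand) encodes a DNA helicase of the crossover pathway. At P8 Hfm1 was at 5.27, 3.97 and 1.79 CPM in WT, 66.4, 123 and 53.2 CPM in INSL3-KI and 39.9, 38.7 and 37.5 CPM in libraries labelled INSL3-KO. At P23 it was at 104, 92.4 and 107 CPM in WT, 84.1, 95.9 and 64.5 CPM in INSL3-KI and 6.43, 7.45 and 7.88 CPM in INSL3-KO. The second INSL3-KI library of P8 was thus above all WT libraries of any age, and the INSL3-KO libraries of P23 were just above the WT range of P8. At P40 Hfm1 was at 87.8, 84.9 and 99 CPM in WT and 58, 25.6 and 20 CPM in INSL3-KI. The groups did not overlap with this scaling but did by library size alone. Rnf212 (chr5:108729290-108774982, minus strand), which marks the intermediates that mature to crossovers, was at 7.51 CPM or less in every library. At P8 Rnf212 was at 2.3, 1.83 and 1.84 CPM in WT, 4.26, 5.18 and 4.06 CPM in INSL3-KI and 2.42, 3.21 and 2.87 CPM in libraries labelled INSL3-KO. At P23 it was at 4.76, 4.08 and 3.49 CPM in WT, 4.67, 5.54 and 3.94 CPM in INSL3-KI and 0.907, 0.69 and 0.894 CPM in INSL3-KO. At P40 Rnf212 was at 4.56, 7.51 and 5.84 CPM in WT and 4, 2.18 and 1.86 CPM in INSL3-KI. It was again apart from WT with this scaling and overlapped by library size alone.

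Mlh3 (chr12:85234520-85270599, minus strand), the resolution gene, is also a mismatch repair gene outside meiosis, and its group means spanned the narrowest range in ratio, from 18.8 to 76.9 CPM. At P8 Mlh3 was at 21, 22 and 19.5 CPM in WT, 27, 51.9 and 23.2 CPM in INSL3-KI and 18.2, 20.7 and 18 CPM in libraries labelled INSL3-KO. At P23 it was at 54.7, 48.9 and 49.3 CPM in WT, 83.2, 90.4 and 56.9 CPM in INSL3-KI and 19.7, 18.4 and 18.4 CPM in INSL3-KO. INSL3-KO overlapped between the ages, and INSL3-KI at P23 was the group with the highest Mlh3. At P40 Mlh3 was at 60.6, 66.7 and 71.9 CPM in WT and 64.3, 31.7 and 30.7 CPM in INSL3-KI, the first library inside the WT range.

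The order of the 8 groups differed between the genes. Spo11, Meiob, Spata22, Msh4 and Hfm1 were highest in WT at P23, Dmc1, Msh5 and Prdm9 in INSL3-KI at P8, Mlh3 in INSL3-KI at P23 and Rnf212 in WT at P40. The lowest group was WT at P8 for Spo11, Meiob, Spata22, Msh4, Hfm1 and Prdm9 and INSL3-KO at P23 for Dmc1, Msh5, Mlh3 and Rnf212. Many neighbours in these orders overlapped. The top and second groups overlapped for all members other than Meiob, Msh4 and Prdm9, and the lowest 2 groups overlapped for Dmc1, Msh5, Mlh3 and Prdm9. The order between ages also rests on the scaling. Library size alone moves the median of all genes from 0.01 to -0.74 on the log2 scale in WT at P23 against P8. With library size alone, INSL3-KI at P8 was highest for 7 of the 10 genes and not 3.

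Between genes, levels can be compared only per transcript length, as FPKM, which divides fragments by library size and by transcript length, and within 1 table. In WT at P40 the mean FPKM was highest for Spo11, at 27.4 ± 1.67 (SD, n = 3), followed by Hfm1 at 11.9 ± 1.56 and Spata22 at 11.2 ± 1.83, and lowest for Prdm9, at 1.81 ± 0.31. In INSL3-KI at P8 Dmc1 came first, at 37 ± 2.6 FPKM, then Spata22 at 22.9 ± 10.3 and Hfm1 at 19.8 ± 7.87, with Spo11 at 10.4 ± 4.9. In WT at P8 Dmc1 at 4.98 ± 1.4 and Mlh3 at 4.22 ± 0.267 FPKM were the highest members, and Meiob at 0.0121 ± 0.021 FPKM the lowest. INSL3-KI at P8 was thus led by the recombinase and the mature WT testis by the gene that makes the breaks. FPKM of Rnf212 is left out across tables, because the length implied by its counts and FPKM was 975 bases in one table and 306 in the other.

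In WT testes all 10 genes were above 0 in fold change from P8 to P23 and from P8 to P40, and 9 rose from P8 to P23, against 32.8% of the 16908 genes tested that were called higher. Spo11 rose most among the genes with a fitted fold, by 7.0 ± 0.34 (adjusted p = 7.3e-07). Spata22 rose by 5.52 ± 0.34, Msh4 by 5.38 ± 0.18 and Hfm1 by 4.74 ± 0.34. Meiob, with 2835 counts in WT at P23 and 3 at P8, was higher by a ratio of 1639 (95% interval 560 to 7951, counting error only). Smaller rises were seen in Msh5 (2.67 ± 0.20), Dmc1 (1.66 ± 0.19), Mlh3 (1.24 ± 0.09) and Rnf212 (1.00 ± 0.24). Prdm9, at 1.5 ± 0.43, did not pass (adjusted p = 0.013). The median of the 10 fold changes was 3.70, that of all genes 0.01. By library size alone 6 were called higher, with 4236 of all genes, and Rnf212 and Prdm9 overlapped between these ages. From P8 to P40, which are in the same table, 10 of 10 rose, against 31.9% of 16892 genes, with a median of 3.65 beside -0.03 for all genes. Spo11 was higher by 6.84 ± 0.36, Dmc1 by 1.06 ± 0.20 and Prdm9 by 1.63 ± 0.43 (adjusted p = 0.0085), and the count of 10 fell to 6 with library size as the only scaling. From P23 to P40 0 of 10 members were called in either direction in WT (edgeR, 1.64% of 16438 genes lower and 3% higher; DESeq2 also called 0 members). Dmc1 (-0.55 ± 0.10), Meiob (-0.61 ± 0.11), Spata22 (-0.62 ± 0.11) and Msh4 (-0.45 ± 0.11) had adjusted p of 0.00091 to 0.0092 but changed less than 2-fold, as did Mlh3 (0.43 ± 0.09).

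At P8 8 of the 10 genes rose in INSL3-KI relative to WT testes, against 3.04% of 15702 genes called higher and 3.25% called lower. The median of the 10 fold changes was 3.99, that of all genes 0.00. The libraries of the 2 groups did not overlap for any of the 10, a count given without its share over all genes. For scale, 7531 of the 15702 genes had an unadjusted p under 0.05 in the edgeR test. Scaled on pachytene spermatocyte genes, 8 of the 10 still lay above 0, with Mlh3 at -1.34 and Rnf212 at -0.59. Under it 1 was called higher, where 5 of all genes were called higher and 73 lower. The pachytene sums were 294, 1818 and 238 CPM in INSL3-KI and 100 to 142 CPM in WT. Break formation genes rose, Spo11 by 4.67 ± 0.60 (adjusted p = 0.0046) and Prdm9 by 3.47 ± 0.45 (adjusted p = 0.0046). All 3 strand exchange genes rose: Spata22 by 5.08 ± 0.54, Dmc1 by 2.80 ± 0.20 and Meiob, with 3323 counts against 3, by a ratio of 1051 (95% interval 359 to 5100, counting error only). Of the crossover genes Msh4 rose by 4.53 ± 0.55, Hfm1 by 4.51 ± 0.49 and Msh5 by 3.11 ± 0.25. Rnf212 was at 1.24 ± 0.25 (adjusted p = 0.012) and Mlh3 at 0.76 ± 0.29 (adjusted p = 0.08). The adjusted p of the 8 called genes lay between 0.0025 and 0.0046, close to the threshold. With the replicate number as a block in the edgeR fit 0 were called, at a lowest adjusted p of 0.011. Leaving out the second or the third WT library or the first or the third INSL3-KI library took the count to 0, with 8 to 10 genes still at an adjusted p under 0.05 and medians of 3.72 to 4.12, and without the second INSL3-KI library, which stood apart, 8 were called with a median of 3.64.

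In P8 libraries labelled INSL3-KO, 8 of the 10 genes were likewise higher than in WT, against 5.44% of 15723 genes called higher and 8.37% called lower. The genes called were Spata22 (4.31 ± 0.35), Spo11 (3.74 ± 0.44), Hfm1 (3.42 ± 0.33), Msh4 (3.29 ± 0.22), Prdm9 (3.10 ± 0.40), Dmc1 (2.57 ± 0.17), Msh5 (2.21 ± 0.19) and Meiob. Meiob had 1976 counts against 3, a ratio of 590 (95% interval 202 to 2865, counting error only). Rnf212 was at 0.53 ± 0.24 (adjusted p = 0.097) and Mlh3 at -0.11 ± 0.09 (adjusted p = 0.35). The median was 3.19 beside -0.02 for all genes. Both comparisons use the same 3 WT libraries. Set against each other at P8, INSL3-KI and libraries labelled INSL3-KO gave 0 called members by edgeR (2.76% of 15728 genes higher, 1.16% lower) and 1 by DESeq2. The 10 fold changes lay above 0, with a median of 0.87, and 3 had an adjusted p of 0.03 or less: Msh5 at 0.88 ± 0.16 (adjusted p = 0.0072), Hfm1 at 1.07 ± 0.29 and Prdm9 at 0.36 ± 0.10. Scaled on pachytene spermatocyte genes, 7 of these 10 differences lay below 0. The sums of those genes were 294, 1818 and 238 CPM in INSL3-KI and 242 to 247 CPM in libraries labelled INSL3-KO.

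**Figure D2:**
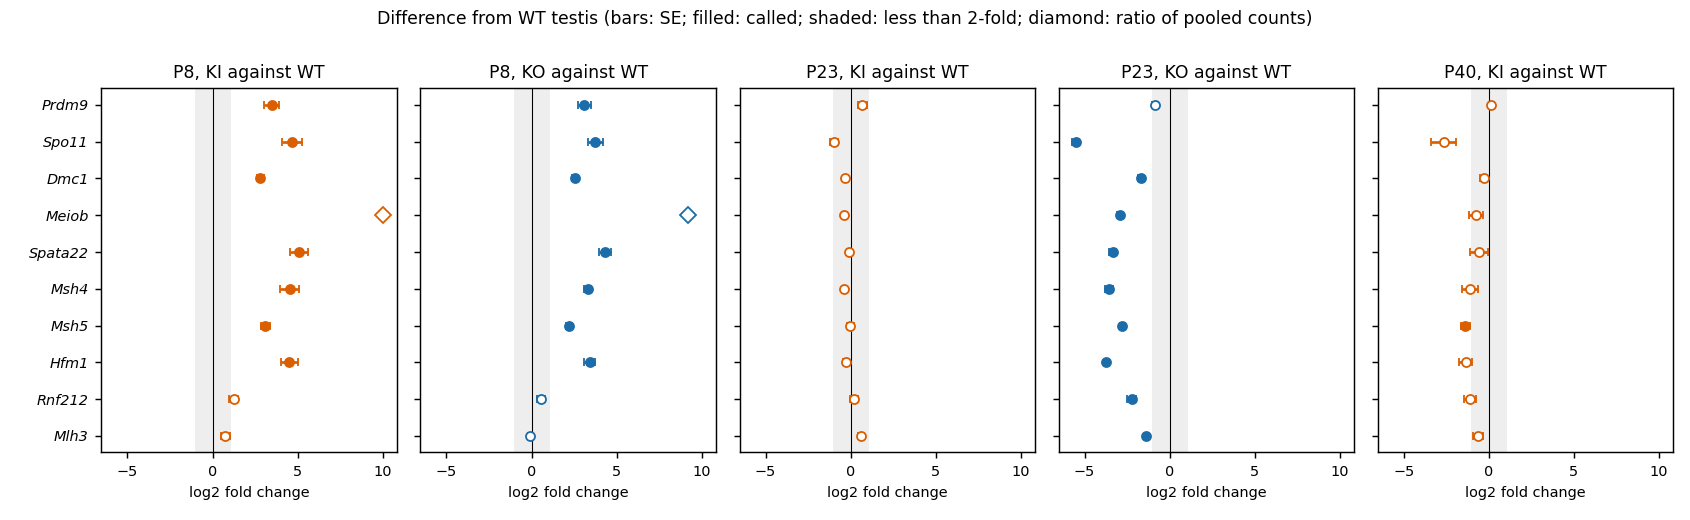
Log2 fold change of each recombination gene against WT testis of the same age; bars are SE, filled points were called, the grey band covers less than 2-fold, and diamonds give Meiob, called in both P8 comparisons, as a ratio of pooled counts with no SE. Relative to all genes, 8 genes were called higher at P8 in INSL3-KI and in libraries labelled INSL3-KO and 9 lower in INSL3-KO at P23. There scaling on pachytene genes turned the sign of all 10 and called 14342 of all genes higher.

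At P23 the mutants differed. Relative to all genes 9 of the 10 fell in INSL3-KO testes, against 33.4% of 16732 genes called lower and 31.1% called higher. Scaled on pachytene spermatocyte genes all 10 lay above 0 and 9 were called higher, where 14342 of all genes were called higher and 1167 lower. Spo11 fell by 5.53 ± 0.21 on the log2 scale (adjusted p = 2.3e-09), Hfm1 by 3.74 ± 0.09 and Msh4 by 3.57 ± 0.21. Spata22 fell by 3.35 ± 0.21, Meiob by 2.95 ± 0.12, Msh5 by 2.78 ± 0.14 and Rnf212 by 2.24 ± 0.27. The smallest called differences were those of Dmc1 (-1.71 ± 0.14) and Mlh3 (-1.38 ± 0.07). Prdm9, at -0.87 ± 0.17 (adjusted p = 0.00067), changed less than 2-fold. The median of the 10 was -2.87, that of all genes 0.06. With this scaling the libraries of the groups overlapped for none of the 10, but those of Prdm9 overlapped by library size alone. That count is given without its share over all genes. For scale, 14845 of the 16732 genes had an unadjusted p under 0.05 in the edgeR test. Under library size alone, which moves the median of all genes to 0.69 and the share of calls that are lower from 51.8% to 38.7%, 8 of the 10 were called lower.

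In INSL3-KI at P23 0 of the 10 genes were called against WT by edgeR (8.81% of 16603 genes higher, 11.8% lower), and DESeq2 called 1 lower. Spo11 came nearest, at -0.97 ± 0.23 (adjusted p = 0.015), followed by Mlh3 at 0.61 ± 0.19 (adjusted p = 0.033) and Msh4 at -0.39 ± 0.14 (adjusted p = 0.049). Of the 10, 7 lay below 0 and 3 above, with a median of -0.18 beside 0.08 for all genes, and by library size alone 9 lay above 0 and 2 were called higher. Compared directly, all 10 at P23 stood higher in INSL3-KI relative to all genes than INSL3-KO libraries did, against 25.2% of 16379 genes. Once scaled on pachytene genes all 10 lay below 0, where 14321 of all genes were called lower and 459 higher. The differences ran from 1.45 ± 0.19 in Dmc1 and 1.61 ± 0.27 in Prdm9 to 3.49 ± 0.20 in Hfm1 and 4.63 ± 0.43 in Spo11, with a median of 2.71 (edgeR, adjusted p of 0.00016 to 0.0025).

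At P40 Msh5 alone of the 10 passed the test in INSL3-KI against WT testes, against 22.1% of 16677 genes called lower and 25.6% called higher. DESeq2 called 4 lower, with 5428 of all genes. Scaled on Sertoli cell genes 9 were called lower, with 11608 of all genes, and scaled on pachytene genes 5 higher, with 11153. Msh5 fell by 1.37 ± 0.26 on the log2 scale (adjusted p = 0.0036), but was at -0.77 and not called by library size alone and at 1.80 when scaled on pachytene genes. Spo11 was at -2.66 ± 0.74 (adjusted p = 0.017), Hfm1 at -1.36 ± 0.38 (adjusted p = 0.017) and Rnf212 at -1.11 ± 0.34 (adjusted p = 0.024), all below WT in every library with this scaling; by library size alone Hfm1 and Rnf212 overlapped WT. Msh4 (-1.12 ± 0.48), Meiob (-0.77 ± 0.42), Mlh3 (-0.61 ± 0.29), Spata22 (-0.57 ± 0.53) and Dmc1 (-0.31 ± 0.19) had adjusted p of 0.07 to 0.36. Prdm9 was at 0.15 ± 0.15 (adjusted p = 0.38). The count rested on single libraries. Without the first INSL3-KI library 8 of the 10 were called lower, with a median of -1.47 in place of -0.94. That count is given without its share over all genes. Without any 1 of the 3 WT libraries or the second INSL3-KI library the count was 0.

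The INSL3-KI difference at P40 was lower than that at P8 in 9 of the 10 genes by the interaction term of edgeR, against 22.5% of 17354 genes. The difference of log2 differences was -7.42 ± 1.04 for Spo11, -5.95 ± 0.68 for Hfm1, -5.74 ± 0.82 for Spata22 and -5.73 ± 0.78 for Msh4. Msh5 (-4.55 ± 0.37), Prdm9 (-3.40 ± 0.49), Dmc1 (-3.20 ± 0.28) and Rnf212 (-2.44 ± 0.41) followed, and Meiob passed with an adjusted p of 2.2e-05. Mlh3, at -1.45 ± 0.43 (adjusted p = 0.012), did not pass. All 12 libraries of this test are in 1 table, and by library size alone 9 were called lower as well.

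Followed with age in INSL3-KI and in libraries labelled INSL3-KO, the genes did not repeat the rise of WT. In INSL3-KI from P8 to P23 Dmc1 fell by 1.5 ± 0.14 on the log2 scale (adjusted p = 0.0086) and was the 1 member called, against 3.53% of 16412 genes called lower and 5.7% higher. Prdm9 was at -1.32 ± 0.25 (adjusted p = 0.011), Spo11 at 1.29 ± 0.41 (adjusted p = 0.042) and Mlh3 at 1.04 ± 0.35 (adjusted p = 0.051). The Dmc1 call was lost without the first or the third library of P8 or the first or second of P23, and without the second library of P8 3 members were called higher. From P8 to P40 Dmc1 fell by 2.14 ± 0.21 (adjusted p = 0.0046) and Prdm9 by 1.77 ± 0.15 (adjusted p = 0.0035), against 2.66% of 15952 genes called lower and 2.81% called higher, and both calls were lost without the first or the third library of P8 or the second or the third of P40. Between P23 and P40 edgeR called 0 of 16328 genes (0%), with 7614 at an unadjusted p under 0.05, and DESeq2 called 875 lower and 302 higher, 1 member among them. The 10 members all lay below 0 there, with a median of -1.13 beside 0.05 for all genes.

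In INSL3-KO 9 of the 10 fell from libraries labelled INSL3-KO at P8 to P23, against 11.7% of 15773 genes called lower and 12% called higher. Dmc1 fell by 2.60 ± 0.11 on the log2 scale (adjusted p = 3.8e-10), Prdm9 by 2.44 ± 0.11, Hfm1 by 2.40 ± 0.09 and Msh5 by 2.30 ± 0.14. Spo11 fell by 2.28 ± 0.27, Spata22 by 2.12 ± 0.20, Rnf212 by 1.75 ± 0.29, Meiob by 1.53 ± 0.13 and Msh4 by 1.46 ± 0.22. Mlh3 was at 0.00 ± 0.09 (adjusted p = 0.97). The median was -2.20 beside -0.02 for all genes.

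The ratio of Dmc1 to Spo11 counts within a library does not depend on the scaling between libraries; it was picked after the values were seen and is given as a description. In WT the ratio was 12.5, 27.5 and 20.4 at P8, 0.45, 0.392 and 0.427 at P23 and 0.304, 0.276 and 0.357 at P40. Dmc1 counts thus exceeded Spo11 counts in every WT library of P8 and fell short of them in every older WT library. INSL3-KI libraries were at 6.66, 3.22 and 5.71 at P8, 0.568, 0.568 and 1.02 at P23 and 0.837, 4.67 and 2.86 at P40. Libraries labelled INSL3-KO were at 8.18, 6.72 and 7.85 at P8, and INSL3-KO at 11.1, 3.61 and 6.71 at P23. These ranges overlapped, and INSL3-KI at P40 lay above WT of the same age in all 3 libraries. The WT ratios at P8 rest on 41, 14 and 17 Spo11 counts.

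**Figure D3:**
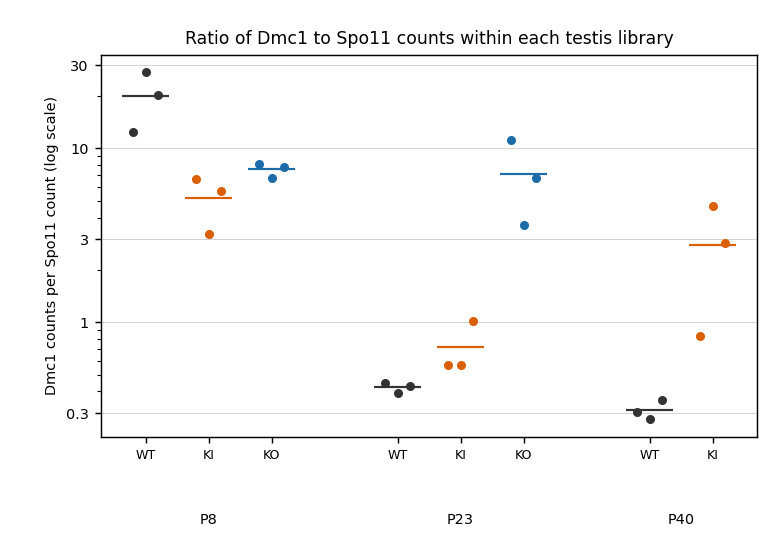
Dmc1 counts divided by Spo11 counts within each of the 24 testis libraries (log scale); points are libraries and lines are means of 3 libraries. The WT ratio was 12.5 to 27.5 at P8 and 0.276 to 0.45 at P23 and P40, while INSL3-KO at P23 was at 3.61 to 11.1.

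The other genes of the pathway were taken from a list of 50 genes of break formation, strand invasion and crossover formation, of which 47 were matched and tested. At P8 10 of the 47 rose in INSL3-KI and 0 fell, against 3.04% and 3.25% of all genes, with a median of 0.61. The largest rises were those of Rad51ap2, a partner of the strand exchange recombinases (4.90 ± 0.28), and AI481877, the tables' symbol for the crossover gene Shoc1 (3.46 ± 0.47), and the smallest called were those of the helicase Helq (1.19 ± 0.19) and of Brca2, which loads recombinases (1.17 ± 0.13). In libraries labelled INSL3-KO 13 of the 47 rose and 0 fell, against 5.44% and 8.37% of all genes, with a median of 0.57. Rad51ap2 (4.25 ± 0.21) and AI481877 (3.61 ± 0.40) led again. The smallest called were Rpa3, a subunit of replication protein A (1.02 ± 0.09), and Rec114, a partner of Spo11 (1.01 ± 0.23). The 10 members had a larger median than the rest of the pathway in both P8 comparisons, 3.99 and 3.19; their difference from the list was not tested.

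At P23 24 of the 47 fell and 2 rose in INSL3-KO relative to all genes, against 33.4% and 31.1%, with a median of -1.04. Scaled on pachytene genes 0 fell and 45 rose, where 14342 of all genes were called higher and 1167 lower. The largest falls were in Cntd1, a cyclin-like gene of crossover maturation (-6.31 ± 0.18), and 4930432K21Rik, the tables' symbol for Brme1, a partner of Brca2 in meiosis (-5.17 ± 0.09). The 2 that rose were Rpa3 (1.89 ± 0.12) and Sfr1, a cofactor of recombinases (1.09 ± 0.05). In INSL3-KI at P23 1 of the 47 was called, against 8.81% of all genes higher and 11.8% lower. It was Atm, the kinase that limits breaks, which rose by 1.44 ± 0.18. At P40 4 fell and 4 rose in INSL3-KI, against 22.1% and 25.6% of all genes, with a median of -0.42. 4930432K21Rik (-2.62 ± 0.62) and the nuclease scaffold Slx4 (-2.05 ± 0.42) fell most. Mei4, a gene of break formation (1.41 ± 0.31), and the nuclease Exo1 (1.05 ± 0.14) were called higher. By library size alone 0 of the 47 were lower and 10 higher, where 2458 of all genes were lower and 6583 higher. Scaled on Sertoli cell genes 44 were lower, where 11608 genes were lower and 30 higher. Scaled on pachytene genes 36 were higher, where 11153 genes were higher and 830 lower. In WT from P8 to P40 15 of the 47 rose and 8 fell, with a median of 0.46, where 31.9% of all genes were called higher and 27.9% lower.

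Lists of meiotic genes and of Sertoli cell genes differed between the groups too. With this scaling Sertoli sums were above WT in INSL3-KO at P23 and INSL3-KI at P40, where the members' sums were below. The 10 genes of the meiotic axis and synaptonemal complex, which hold paired chromosomes together, summed to 159 to 318 CPM in WT at P8, 870 to 1889 CPM in INSL3-KI and 1117 to 1132 CPM in libraries labelled INSL3-KO. At P23 they summed to 3209 to 3370 CPM in WT, 1614 to 2498 CPM in INSL3-KI and 306 to 325 CPM in INSL3-KO. At P40 they summed to 2658 to 2883 CPM in WT and 439 to 1592 CPM in INSL3-KI. All 10 were called higher at P8 in INSL3-KI and in libraries labelled INSL3-KO, and all 10 lower in INSL3-KO at P23. The 9 genes of pachytene spermatocytes, the stage at which crossovers form, summed to 100 to 142 CPM in WT at P8, 238 to 1818 CPM in INSL3-KI, with the second library highest, and 242 to 247 CPM in libraries labelled INSL3-KO. At P23 they stood at 9955 to 10100 CPM in WT and 192 to 198 CPM in INSL3-KO. At P40 they stood at 8002 to 8975 CPM in WT and 541 to 3410 CPM in INSL3-KI, with the first library highest. The 10 Sertoli cell genes, of the somatic cells that nurse germ cells, summed to 644 to 675 CPM in WT and 3478 to 3587 CPM in INSL3-KO at P23, and to 596 to 650 CPM in WT and 2171 to 3087 CPM in INSL3-KI at P40. At P8 the Sertoli ranges of 1418 to 2267 CPM in WT and 1984 to 2446 CPM in INSL3-KI overlapped, and 3 of the 10 were called higher. In libraries labelled INSL3-KO the Sertoli genes summed to 2450 to 2508 CPM, above every WT library, with 5 called higher and 1 lower. Of these 29 genes 1, the Sertoli gene Defb45, was listed at 0 in a whole group, WT at P8.

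Other lists moved as well. In INSL3-KO at P23 9 of 9 macrophage genes, 9 of 10 Sertoli cell genes, 6 of 10 genes of undifferentiated spermatogonia (with 2 lower), 5 of 5 peritubular myoid genes and 4 of 6 Leydig cell genes were called higher, and all 10 round spermatid and 9 elongating spermatid genes lower. In INSL3-KI at P40 the counts were 9 of 9 macrophage, 9 of 10 Sertoli cell, 6 of 10 undifferentiated spermatogonial, 4 of 5 peritubular and 4 of 6 Leydig cell genes higher and the same 2 spermatid lists lower in full. At P8 in INSL3-KI 3 of 6 Leydig cell genes were lower and 1 higher, 1 of 10 undifferentiated spermatogonial genes was higher, and 0 of the 7 differentiating spermatogonial, 9 macrophage, 5 peritubular and 5 red blood cell genes were called by edgeR. In libraries labelled INSL3-KO 3 of the 10 undifferentiated spermatogonial genes were lower and 1 higher, 2 of 7 differentiating spermatogonial genes were higher, 1 Leydig cell gene was lower and 1 higher, and 1 peritubular and 1 red blood cell gene were lower. In INSL3-KI at P23, where 0 members were called, 9 of 10 round spermatid, 7 of 9 elongating spermatid, 2 of 10 axis and 2 of 6 Leydig cell genes were lower, 3 of 10 Sertoli cell and 2 of 5 peritubular genes were higher, and 4 undifferentiated spermatogonial genes were higher and 1 lower. Pachytene genes were called higher at P8 in 1 of 7 tested in INSL3-KI and 3 of 7 in libraries labelled INSL3-KO. They were lower in 9 of 9 in INSL3-KO at P23, and 0 of 9 were called in INSL3-KI at P23 or P40. In INSL3-KI at P40 their median log2 fold change was -2.04, and 3 of 10 axis genes were lower. Of all genes, 31.1% were called higher and 33.4% lower in INSL3-KO at P23, and 25.6% and 22.1% in INSL3-KI at P40. In INSL3-KI the shares were 3.04% and 3.25% at P8 and 8.81% and 11.8% at P23. In P8 libraries labelled INSL3-KO they were 5.44% and 8.37%. The part of these cell types in the members' differences was not tested.

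Counted against the axis genes of the same library, the 10 members made up 16.8 to 24 counts per 100 axis counts in WT at P8, 24 to 27.3 in INSL3-KI and 17.7 to 18 in libraries labelled INSL3-KO. At P23 the figures were 12 to 12.7 in WT, 15.2 to 17.7 in INSL3-KI and 16.5 to 18.3 in INSL3-KO, and at P40 11.9 to 13.9 in WT and 16.8 to 23.6 in INSL3-KI. The sum hides differences between members. In INSL3-KO at P23 Spo11 was at 0.323 to 0.783 counts per 100 axis counts, beside 2.2 to 2.41 in WT, and Hfm1 at 2 to 2.44 beside 2.88 to 3.22, both below every WT library. Mlh3, at 5.65 to 6.1 beside 1.48 to 1.62, lay above WT, as did Dmc1, Meiob, Msh5, Rnf212 and Prdm9, while Spata22 and Msh4 overlapped WT. In INSL3-KI at P40 Spo11 was again below every WT library, at 0.672 to 1.51 beside 2.3 to 2.62, and 6 members were above. These ratios were also chosen after the values were seen and are a description.

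**Figure D4:**
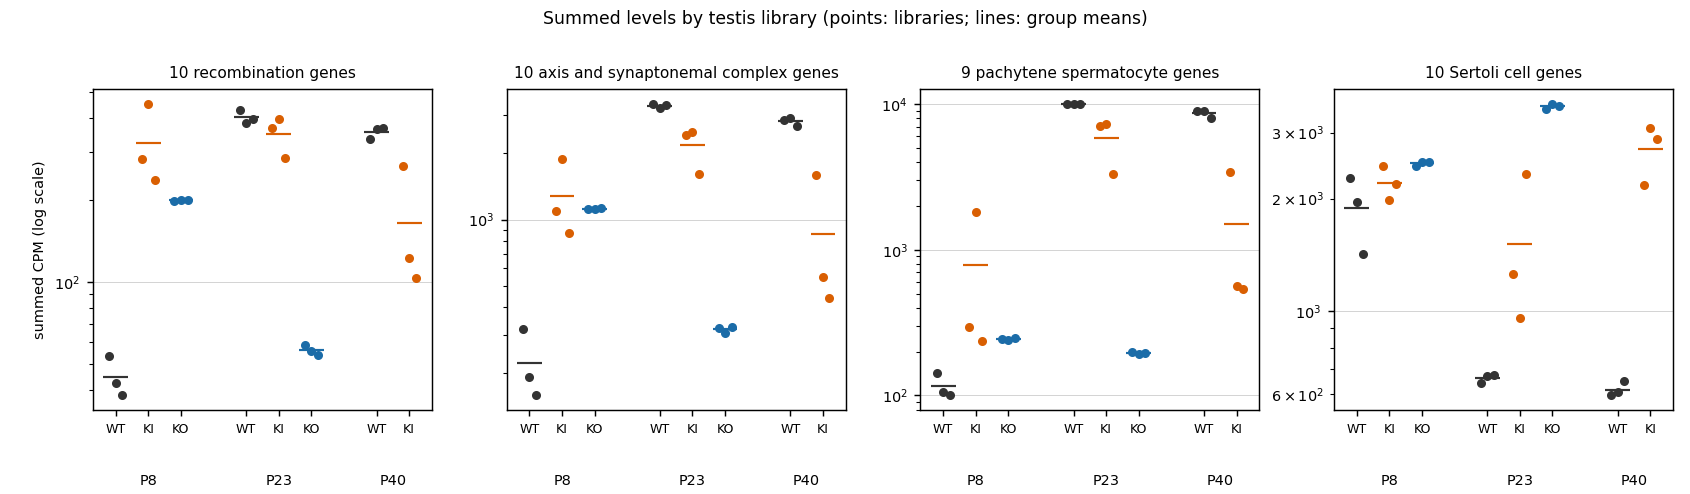
Summed CPM (log scale) of the 10 recombination genes and of 3 lists of cell type genes in the 24 testis libraries, scaled by TMM; points are libraries and lines are means of 3 libraries. At P23 axis and pachytene genes were low in INSL3-KO, at 306 to 325 and 192 to 198 CPM, while Sertoli cell genes were high, at 3478 to 3587 CPM, all relative to TMM scaling.

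As a description of likeness, each gene's log2 CPM over the means of the 8 testis groups was compared with the average pattern of the 10 members. Hfm1 was closest to that average (Pearson r = 0.996), and Prdm9 (0.733), Mlh3 (0.743) and Dmc1 (0.753) were farthest. Outside the members, Tfcp2 (r = 0.991), 1700123I01Rik (r = 0.990) and Gm1564 (r = 0.987) were the nearest of 15338 genes compared. The 8 points share libraries, depth and germ cell content, and so many genes were searched that high values among them are no finding. Tfcp2, a transcription factor, ran at 18.2 ± 0.698 CPM in WT and 28.6 ± 4.34 CPM in INSL3-KI at P8, and at 28.8 ± 0.863 CPM in WT and 18.6 ± 2.3 CPM in INSL3-KO at P23 (SD, n = 3). 1700123I01Rik ran from 0.706 ± 0.448 CPM in WT at P8 to 19.1 ± 1.97 CPM in WT at P23, and Gm1564 from 9.22 ± 10.1 to 270 ± 12.2 CPM.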

How the data were processed

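Mouse testis RNA in 24 libraries, in 8 groups of 3, was analysed out of 39 libraries in 13 groups. The gubernaculum libraries served only for the closing values. Per the paper's methods, TRIzol RNA was made into mRNA libraries and read in pairs, and the submitters' processing notes name HISAT2 and GRCm38; the counting program, annotation and strand setting are not given in the sources used here. The authors deposited raw read counts per gene and FPKM in 2 tables of 27 and 12 libraries, which share 21561 Ensembl genes.

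The deposited counts were tested 2 groups at a time with edgeR 4.0.16 in R 4.3.3 (quasi-likelihood test, TMM, filterByExpr with a minimum count of 10 and a total of 15, Benjamini-Hochberg over all genes tested). Calls needed an adjusted p under 0.01 and a fold of at least 2. One further fit took the interaction of genotype and age. Alternatives were DESeq2 1.42.0, limma 3.58.1 on log2 of the deposited FPKM with a pseudocount of 1 or 0.1, library size alone, no filter, the replicate block, all testis groups in 1 fit, scaling on Sertoli or pachytene genes, and each library left out. The code was tested on simulated data. Counts of the identifiers ENSMUSG00000112920 and ENSMUSG00000069825, which overlap, were summed for Spata22. Coordinates are those of GENCODE M21; promoter sequences are from RefSeq. Reads of genes that overlap a member (Gm46369 and Mir6938 in Mlh3, 1700047L14Rik in Rnf212, Gm27527 and Olfr719-ps in Hfm1, Gm24395 in Msh4, Gm18564 in Prdm9, Gm27903 in Dmc1) cannot be told apart without strand. Depth was 33000204 to 42629270 counts per testis library; intervals on ratios of counts cover counting error only, and a gene at 0 in a library could hold up to 3 counts.

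The 10 members, the lists and the tests were chosen with earlier results of these data known. Named genes were all members, the 2 called genes with the largest and the 2 with the smallest log2 fold change among the other recombination genes in the comparisons described, the 3 genes most like the members' mean pattern among those whose mean CPM was 1 or more, and Insl3. Lists of Sertoli, Leydig, macrophage, peritubular myoid and red blood cell genes and of 6 germ cell stages or structures were written from general knowledge.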

Additional observations from a re-analysis of the deposited data

Results flagged for a closer look

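The difference between INSL3-KI and WT testes changed between P8 and P40 for 9 of the 10 recombination genes, by the interaction term of edgeR, against 22.5% of 17354 genes called lower and 23.2% higher. The change, as the log2 difference at P40 minus that at P8, was -7.42 for Spo11, -5.95 for Hfm1, -5.74 for Spata22, -5.73 for Msh4, -4.55 for Msh5, -3.40 for Prdm9, -3.20 for Dmc1 and -2.44 for Rnf212. For Meiob, at 3 counts in WT at P8, the adjusted p was 2.2e-05 and no fold is given.

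In the gubernaculum, which was in no comparison above, some members were above every WT library of the same age in all 3 mutant libraries. The values are means of CPM by library size over 3 libraries, and their differences were not tested. Dmc1 was at 6.1 CPM in INSL3-KI and 5.71 CPM in INSL3-KO at P8, beside 2.5 CPM in WT. Prdm9 was at 3.02 CPM in INSL3-KI at P8, beside 1.41 CPM in WT, and at 6.34 CPM at P23, beside 2.72 CPM. Mlh3 was at 20.1 CPM in INSL3-KI at P8, beside 15.9 CPM in WT, and Msh5 at 1.72 CPM at P23, beside 0.892 CPM. Other members lay below every WT library: in INSL3-KO at P8 Mlh3, at 12.4 CPM, and Msh5, at 1.83 CPM beside 2.62 CPM in WT, and in INSL3-KI Spo11 at P8, at 0 counts beside 13 to 18 in WT, and at P23, at 0.072 CPM beside 0.384 CPM. Hfm1 at P8 was also below, at 0.169 CPM in INSL3-KI and 0.296 CPM in INSL3-KO beside 0.603 CPM in WT. Spata22 was near the floor, at 0.368 CPM in INSL3-KI and 0.488 CPM in INSL3-KO at P8 and 1.22 CPM in INSL3-KI at P23, beside 0.0583 CPM in WT at P8 and 0.00933 CPM at P23. The summed FPKM of the 10 genes of undifferentiated spermatogonia in the P8 gubernaculum was 34.1 for WT, 84.4 for INSL3-KI and 63.2 for INSL3-KO. At P23 it was 110 for WT and 46.4 for INSL3-KI, the opposite order. Other germ cell lists differed from it at P23. Differentiating spermatogonial genes summed to 2.27 for WT and 9.55 for INSL3-KI, axis genes to 3.2 and 9.27, and pachytene genes to 8.76 and 22.4. Round spermatid genes summed to 2.24 and 2.45, and elongating spermatid genes to 3.28 and 1.95. At P8 axis genes summed to 11.2 for WT, 9.21 for INSL3-KI and 14.6 for INSL3-KO. The part of germ cells in these values was not tested. INSL3-KO gubernaculum is in another table than WT, so table and group cannot be told apart for it.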

How the results depend on the processing

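With 3 libraries per group, counts of called genes near the threshold moved with single libraries, while directions held under most settings. Of 2300 values of single members under other settings, 2009 kept their direction and side of the threshold. Another 27 took the opposite sign with a call involved (20 of them called in the main comparison, 7 called only under the other setting). Of these 27, 25 were under scaling on pachytene spermatocyte genes. A further 78 took the opposite sign without being called under either setting.

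That scaling sets those 9 genes equal between groups. Under it 1 member was called higher at P8 in INSL3-KI, where 73 of all genes were lower and 5 higher. In libraries labelled INSL3-KO 1 was lower and 8 higher, where 8047 genes were lower and 197 higher. At P23 0 were lower and 9 higher in INSL3-KO against WT, where 1167 genes were lower and 14342 higher. In INSL3-KI against INSL3-KO 8 were lower and 0 higher, where 14321 genes were lower and 459 higher. In INSL3-KI against WT 1 was higher at P23, where 777 genes were lower and 519 higher. At P40 0 were lower and 5 higher, where 830 genes were lower and 11153 higher. In INSL3-KO against WT at P23 the log2 values became Spo11 0.08, Dmc1 3.91, Meiob 2.68, Spata22 2.28, Msh4 2.05, Msh5 2.84, Mlh3 4.25, Hfm1 1.89, Rnf212 3.37 and Prdm9 4.76. In INSL3-KI against INSL3-KO they became Spo11 -0.24, Dmc1 -3.28, Meiob -2.06, Spata22 -1.48, Msh4 -1.52, Msh5 -2.05, Mlh3 -2.80, Hfm1 -1.33, Rnf212 -2.29 and Prdm9 -3.26. In INSL3-KI against WT at P40 Dmc1 became 2.99, Meiob 2.19, Spata22 2.21, Msh5 1.80 and Mlh3 2.51. Scaled on Sertoli cell genes, 9 members were lower there and Prdm9 was at -1.99, where 11608 of all genes were lower and 30 higher.

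DESeq2 called 1 member higher in INSL3-KI against libraries labelled INSL3-KO at P8, where 642 of all genes were higher. It called 1 lower in INSL3-KI at P23, with 3087 of all genes, and 4 lower at P40, with 5428. In INSL3-KI from P8 to P23 it called 2 lower and 2 higher, where 1439 genes were lower and 3553 higher. From P23 to P40 it called 1 lower, with 875 of all genes. Library size alone called 2 higher in INSL3-KI at P23, where 3607 of all genes were higher, and 0 lower at P40, where 2458 were lower. It called 6 higher in WT from P8 to P40, with 4201 of all genes, and 6 from P8 to P23, with 4236. In INSL3-KI from P8 to P23 it called 2 lower, with 980 of all genes. It put 7 members highest in INSL3-KI at P8. On log2 FPKM with a pseudocount of 1, limma called 1 higher in INSL3-KI at P23, 0 lower at P40, 6 higher in WT from P8 to P40 and 2 lower in INSL3-KI from P8 to P23; with 0.1 it called 2, 0, 6 and 2, and 1 lower in WT from P23 to P40, Rnf212 at -1.0, whose implied length differs between those tables. All groups in 1 fit called 4 lower at P40, 2 lower and 1 higher in INSL3-KI from P8 to P23 and 3 lower from P23 to P40. The limma counts and those of the single fit are given without their share over all genes. The cause of these changes was not tested.

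Samples of the same number did not deviate together (0 of 14 comparisons had every correlation above 0.1; they ran from -0.645 to 0.723). With the replicate block 0 members were called higher in INSL3-KI at P8, where the lowest adjusted p was 0.011, 2 lower in INSL3-KI from P8 to P23 and 0 lower from P8 to P40.

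With 1 library left out, members called higher in INSL3-KI at P8 ranged from 0 to 8, and against libraries labelled INSL3-KO from 0 to 1. Members called lower in INSL3-KI at P40 ranged from 0 to 8. In INSL3-KI from P8 to P23 lower calls ranged from 0 to 1 and higher calls from 0 to 3. From P8 to P40 lower calls ranged from 0 to 3. Counts with 1 library left out, and with the replicate block, are given without their share over all genes.

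The share of all calls that were lower also moved with library size alone: from 51.7% to 34.1% in INSL3-KI at P8, 57.3% to 28.7% at P23 and 46.4% to 27.2% at P40, from 60.6% to 48.7% in libraries labelled INSL3-KO at P8, from 46.9% to 63.1% in WT from P8 to P23 and 46.6% to 62.2% from P8 to P40, from 38.3% to 49% in INSL3-KI from P8 to P23 and 48.6% to 58.8% from P8 to P40, from 49.4% to 65.5% in INSL3-KO between the ages, and from 49.3% to 30.8% in the interaction. At P8 in INSL3-KI DESeq2 gave 1135 lower and 1014 higher calls over all genes, where edgeR gave 511 and 477, and in INSL3-KI from P8 to P23 1439 and 3553 against 580 and 936, and from P8 to P40 871 and 1241 against 425 and 449. With the row named Spata22 alone, chosen after seeing the data, 7 members were called in INSL3-KI at P8.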

Other observations

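Of the 47 other recombination genes 30 fell from libraries labelled INSL3-KO at P8 to INSL3-KO at P23 and 0 rose, against 11.7% and 12% of all genes, with a median of -1.26 beside -0.02 for all genes. Mei1, a gene of break formation (-2.78 ± 0.12), and AI481877 (-2.75 ± 0.23) fell most. In INSL3-KI 13 of the 47 fell from P8 to P40 and 0 rose, against 2.66% and 2.81%, with a median of -0.82, led by Gm960, the tables' symbol for Top6bl, which works with Spo11 (-2.07 ± 0.19), and Mei1 (-2.03 ± 0.18). In WT from P8 to P23, where table and group cannot be told apart, 17 rose and 6 fell, against 32.8% and 29% of all genes: Cntd1 rose by 7.77 ± 0.16 and Rad51ap2 by 4.21 ± 0.21, while Atm fell by 2.15 ± 0.21 and Brca1, a DNA repair gene, by 1.44 ± 0.13 on the log2 scale. In the interaction of INSL3-KI with age 21 of the 47 were lower, against 22.5%, and 1, Rpa3, was higher, at 1.00 ± 0.21. Adjusted p of the named genes, from edgeR, were 0.0038 or less.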
